A study of Zea mays with 27 samples.

Results

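The dehydrogenase cDNAs described here belong to 3 maize genes, adh1 (LOC542363), PDHE1-B (LOC541705) and mdh4 (LOC542598). They were selected by the gene symbol in the annotation of the array's probes, which left 8 of the 5400 cDNAs on the array, or 24 of its 16200 spots. Of the 8 cDNAs, 4 carried the symbol of adh1, 3 that of PDHE1-B and 1 that of mdh4. A cDNA is named below by the number of its first spot: 5620, 12421, 12652 and 13564 for adh1, 1864, 9352 and 15985 for PDHE1-B, and 1111 for mdh4.

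Total RNA of adult maize leaves was compared on 27 dual-colour arrays among 4 genotypes of differing flavonoid background. B and Pl are regulators of anthocyanin synthesis, and Bz2 is needed to store anthocyanin in the vacuole. The genotypes were B,Pl, bz2, a line labelled mutator whose mutations the labels do not list, and b,pl. Plants stood under plastic filters labelled LE, PE or CA, which the labels do not spell out, or were sampled 1 day after removal of the PE filter. Greenhouse plants received supplementary UV-B for 8 h or no UV-B.

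B,Pl had 3 arrays under PE, 2 each after PE removal and under CA, and 1 each under LE and with UV-B. bz2 had 2 arrays under LE and 1 each under PE, with UV-B and under CA, and mutator had 1 array in each of these 4 conditions. The b,pl plants had 2 arrays each under LE, under PE, after PE removal and with greenhouse UV-B, and 1 without UV-B. The other channel held b,pl CA on most arrays, and CA of the same genotype on the LE arrays of the other genotypes, on the bz2 and mutator PE arrays and on B,Pl PE replicate 1. A group with 1 array has no replicate of its own, and since the labels name no separate plants or cultures within a group, the p-values below measure a spread between arrays that may be technical.

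Alcohol dehydrogenase turns acetaldehyde into ethanol in the last step of ethanolic fermentation, and in maize Adh1 is the best known of the genes induced when roots or seedlings lack oxygen. The pyruvate dehydrogenase complex feeds carbon from glycolysis into the tricarboxylic acid cycle, and PDHE1-B encodes the beta subunit of its E1 component, which decarboxylates pyruvate. NAD-malate dehydrogenase interconverts malate and oxaloacetate. The gene table lists CYTMDH, for the cytosolic enzyme, among the synonyms of mdh4, which is a different gene from the chloroplast NADP-malate dehydrogenase of C4 photosynthesis.

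All values below are on the log2 scale and compare the channels of 1 array, with the array's median at 0, signed so that a positive value means a higher signal in the named group than in the other channel. This sign rests on reading the deposited values as Cy5 over Cy3, which the labels do not state. Were they Cy3 over Cy5, every sign below would be the opposite. Between 14715 and 16122 of the 16200 spots of an array carried a value, and the ratios carry no information on absolute abundance, so the level of a gene is given only relative to b,pl CA, and whether leaf markers were present could not be checked. In leaf RNA, a shift in the share of a cell type and a shift in RNA per cell cannot be told apart.

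Of the values of the 8 cDNAs on the 27 arrays, 207 were means of all 3 spots, 5 of 2 spots and 1 of 1 spot, and 3 had no value. The spots of a cDNA lay close together, with a median SD between 0.03 and 0.08. The arrays spread more. The residual SD of the fit over all arrays was 0.56, 0.35, 0.23 and 0.65 for the adh1 cDNAs in the order given, 0.43, 0.55 and 1.62 for the PDHE1-B cDNAs and 0.30 for mdh4, against a median of 0.41 over all cDNAs. The value of 1.62 for the cDNA at spot 15985 rests largely on a ratio of 6.21 on b,pl PE replicate 2, which came from 1 of 3 spots on the array with the most missing spots, 1485.

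**Figure D1:**
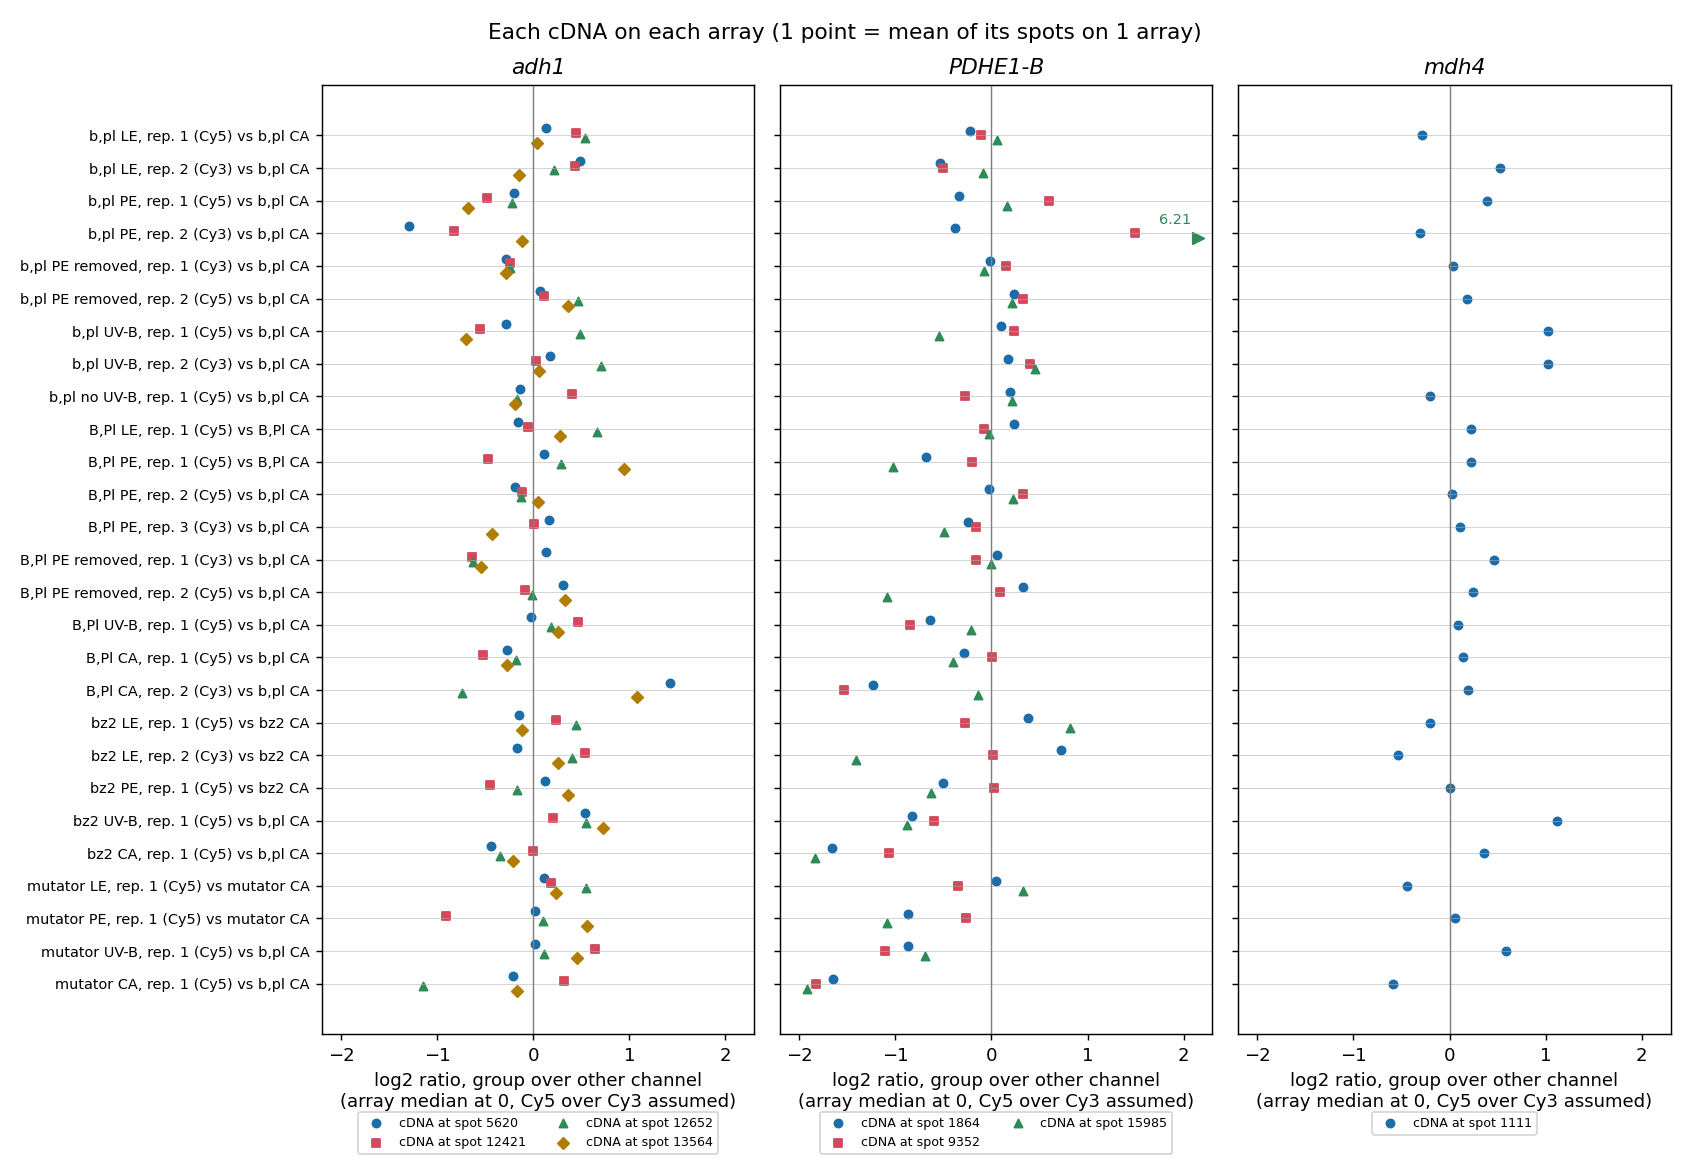
Log2 ratio of each cDNA on each of the 27 arrays (x axis, group over other channel with the array median at 0), with the arrays down the page, each named by its group, the dye of that group and the RNA in the other channel. On the mutator CA and bz2 CA arrays the 3 PDHE1-B cDNAs lie between −1.92 and −1.06, the mdh4 cDNA lies at 1.03 on both b,pl UV-B arrays, and the PDHE1-B value of 6.21, from 1 spot, is drawn as an arrow at the edge.

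All 5400 cDNAs were fitted together, and each of the 8 was tested in 21 comparisons between groups, so that 168 tests were made. None of them passed an adjusted p of 0.05 in limma's moderated test with Benjamini-Hochberg adjustment. At an unadjusted p under 0.05, 15 of the 168 were found, or 8.93%, against 6.14% of the 113252 tests over all cDNAs. The share of all cDNAs that passed was 0.242% for B,Pl LE against CA, 0.556% for bz2 LE, 0.0557% for mutator LE, 0.0186% for B,Pl UV-B against b,pl UV-B, 0.0371% for bz2 UV-B against b,pl UV-B and 0% in the other 16 comparisons. Nearly all of these comparisons share b,pl CA RNA or a CA group, so their values are not independent of each other. The values that follow are therefore a description of differences that did not pass the test.

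**Figure D2:**
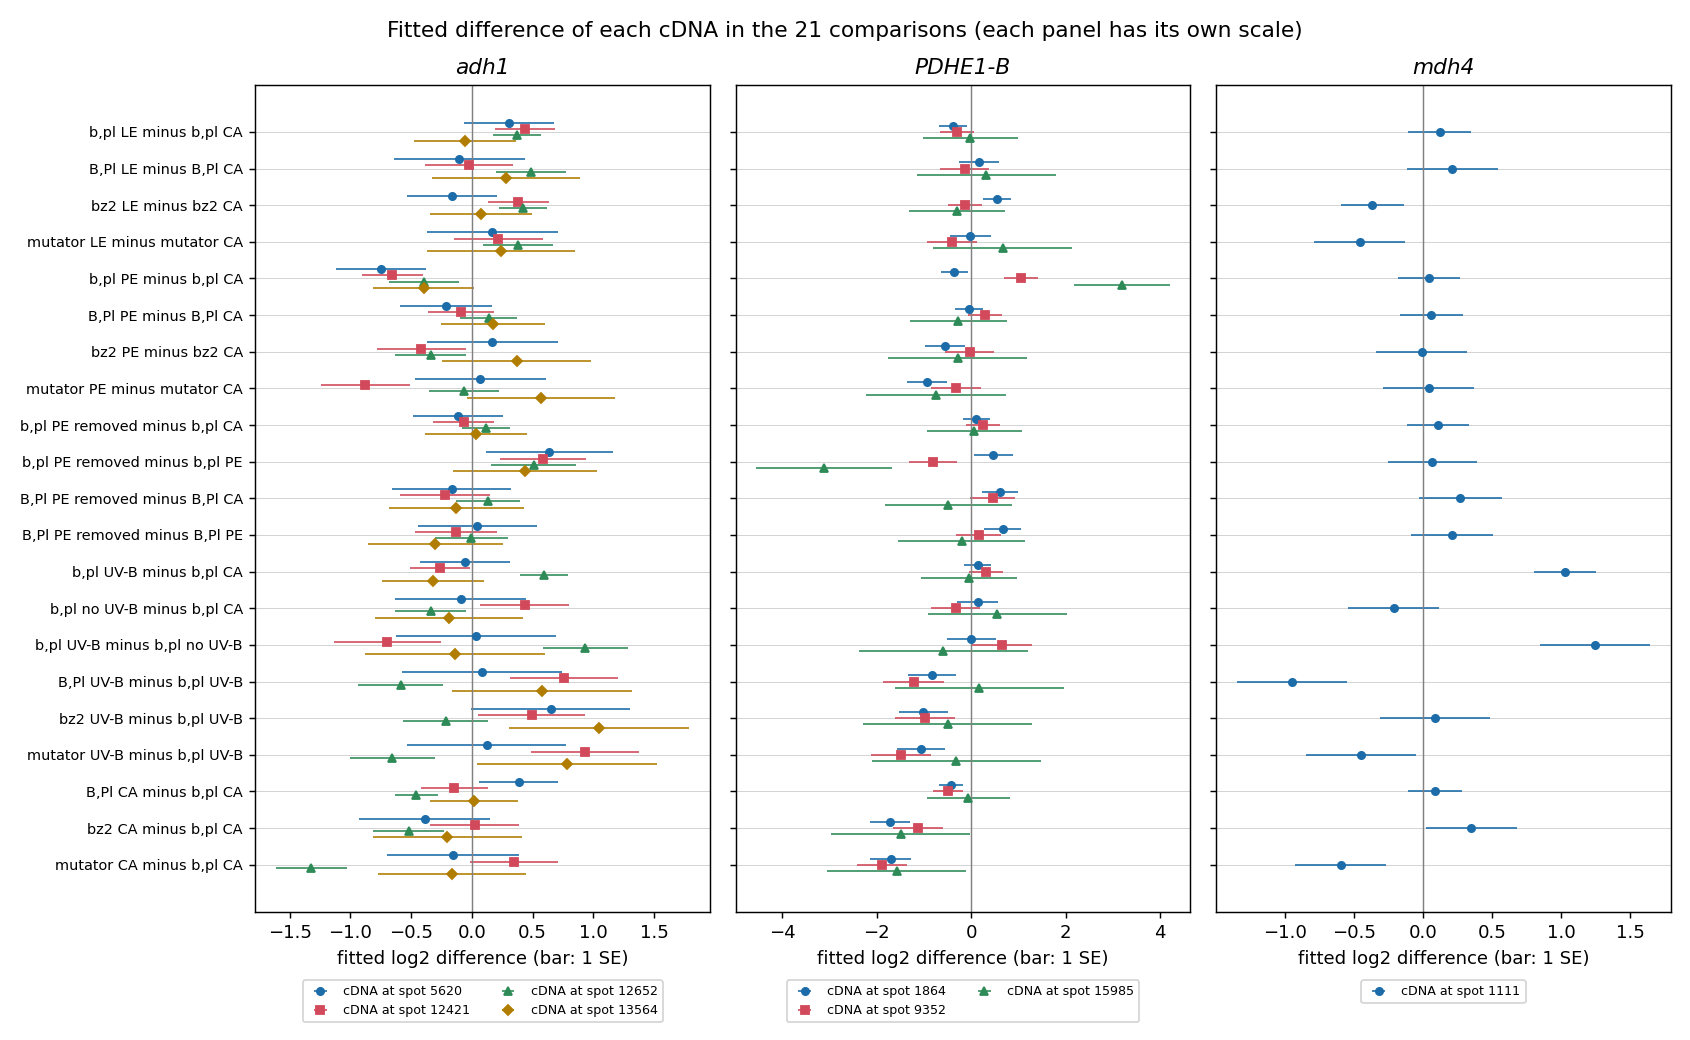
Fitted log2 difference (x axis, own scale for each gene) of each cDNA in each of the 21 comparisons, with bars of 1 standard error. The mdh4 cDNA stands at 1.03 in b,pl UV-B minus b,pl CA, and the PDHE1-B cDNAs stand between −1.89 and −1.12 in mutator CA and bz2 CA minus b,pl CA.

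Under the LE filter, at least 2 of the 4 adh1 cDNAs had positive fitted values in each genotype, and none passed the test. On b,pl LE replicate 1 the cDNAs at spots 5620, 12421, 12652 and 13564 had log2 ratios of 0.13, 0.44, 0.54 and 0.03 over b,pl CA, and on replicate 2, with the dyes swapped, 0.48, 0.44, 0.21 and −0.15. On bz2 LE replicate 1 they had −0.15, 0.23, 0.44 and −0.12 over bz2 CA, and on replicate 2, also a dye swap, −0.17, 0.53, 0.40 and 0.26. The cDNAs at spots 12421 and 12652 were thus positive on all 4 of these arrays. Over all cDNAs, 58.1% were of equal sign on the b,pl LE arrays and 72.7% on the bz2 LE arrays. The share of all cDNAs positive on all 4 was not counted.

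The cDNA at spot 12652 also stood at 0.55 on the mutator LE array and at 0.66 on the B,Pl LE array, each against CA of its own genotype. Its fitted differences between LE and CA were 0.38 (SE 0.20) in b,pl, 0.49 (SE 0.29) in B,Pl, 0.42 (SE 0.20) in bz2 and 0.38 (SE 0.29) in mutator. The smallest limma adjusted p among these, 0.385, was that in bz2. The median of the 4 adh1 cDNAs was 0.34 in b,pl, 0.13 in B,Pl, 0.23 in bz2 and 0.23 in mutator, where the median of all cDNAs lay between −0.02 and −0.00. In mutator 4 of 4 cDNAs were positive, in b,pl and bz2 3 of 4 and in B,Pl 2 of 4. Without centring of the arrays the B,Pl median was −0.04. If every ratio held the named group on top regardless of its dye, the b,pl and bz2 medians would be 0.05 and −0.07.

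Under the PE filter, the adh1 cDNAs of b,pl had negative values on both arrays. On b,pl PE replicate 1 they had log2 ratios of −0.20, −0.48, −0.22 and −0.68 over b,pl CA. On replicate 2, with the dyes swapped, those at spots 5620, 12421 and 13564 had −1.30, −0.82 and −0.11, and that at spot 12652 had no value. The fitted medians were −0.53 in b,pl with 4 of 4 cDNAs negative, 0.02 in B,Pl with 2 of 4, −0.09 in bz2 with 2 of 4 and 0.00 in mutator with 2 of 4. The direction of B,Pl PE replicates 2 and 3 is in doubt, since only 24.8% of all cDNAs were of equal sign on both and reversing replicate 3 lowered the median residual variance to 0.152, against 0.168 as labelled. With replicate 3 reversed, the B,Pl cDNAs stood at −0.31, −0.09, 0.14 and 0.42, and with replicate 2 reversed instead at −0.12, −0.04, 0.24 and 0.16.

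Among the adh1 cDNAs of b,pl PE, the smallest p was that at spot 12421, whose fitted difference was −0.65 (SE 0.25, limma adjusted p = 0.414). In mutator PE the same cDNA stood at −0.88 (SE 0.36, limma adjusted p = 1.00), while that at spot 13564 stood at 0.57. The direction of the b,pl PE arrays is in doubt too. Over the whole array 45.8% of cDNAs were of equal sign on both, and reversing replicate 2 lowered the median residual variance to 0.158, against 0.168 as labelled. With replicate 2 reversed, the cDNAs at spots 5620 and 12421 stood at 0.55 and 0.17, that at spot 13564 at −0.28 and that at spot 12652, which replicate 2 did not measure, at −0.39. With replicate 1 turned instead, the 4 cDNAs stood at −0.55, −0.17, 0.05 and 0.28 in spot order.

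One day after PE removal, the adh1 cDNAs of b,pl lay on both sides of 0. On replicate 1 they had log2 ratios between −0.29 and −0.24 over b,pl CA, and on replicate 2, with the dyes swapped, between 0.07 and 0.47. The arrays of this swap thus had opposite signs for each of the 4 cDNAs, and the fitted differences from b,pl CA lay between −0.11 and 0.11. Against b,pl PE the median was 0.55 with 4 of 4 cDNAs positive (limma adjusted p = 0.999 for each). With the sign of PE removed replicate 1 turned, the differences from b,pl CA lay between 0.18 and 0.35, and with replicate 2 turned instead between −0.35 and −0.18. In B,Pl, PE removed minus CA gave a median of −0.15, with 1 of 4 cDNAs positive.

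In the greenhouse, the adh1 cDNA at spot 12652 differed from the other 3 of its gene. It had log2 ratios of 0.49 and 0.70 on the b,pl UV-B arrays over b,pl CA, with the dyes swapped, and a fitted difference of 0.60 (SE 0.20, limma adjusted p = 0.264). The cDNAs at spots 5620, 12421 and 13564 had −0.28, −0.56 and −0.70 on replicate 1 and 0.17, 0.03 and 0.05 on replicate 2, so that their arrays had opposite signs. With the sign of replicate 1 or of replicate 2 turned, the cDNA at spot 12652 stood at 0.11 or −0.11.

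Against b,pl without UV-B, the cDNA at spot 12652 stood at 0.94 in b,pl UV-B (SE 0.35, limma adjusted p = 0.794), and the median of the 4 was −0.05. On the bz2 UV-B array all 4 cDNAs were positive, with log2 ratios of 0.54, 0.20, 0.55 and 0.72 over b,pl CA, and on the mutator UV-B array they had 0.01, 0.64, 0.11 and 0.46. The B,Pl UV-B array gave −0.02, 0.46, 0.18 and 0.25. Set against b,pl UV-B, the medians were 0.33 in B,Pl, 0.57 in bz2 and 0.45 in mutator, with 3 of 4 cDNAs positive in each and that at spot 12652 negative in each. None passed, and the smallest limma adjusted p among these tests was 0.852.

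Under CA, the adh1 cDNA at spot 12652 had a log2 ratio of −1.15 on the mutator CA array, −0.35 on the bz2 CA array, and −0.19 and −0.74 on the B,Pl CA arrays, all over b,pl CA. The fitted difference in mutator was −1.32 (SE 0.29, limma adjusted p = 0.892), and 0.98 with the sign of the mutator CA array, whose dye labels conflict, turned. The other 3 adh1 cDNAs did not share that value in mutator, at −0.16, 0.35 and −0.16. On B,Pl CA replicate 2 the cDNAs at spots 5620 and 13564 had 1.42 and 1.08, their highest values over the 27 arrays, against −0.27 and −0.28 on replicate 1. The spots of these 2 values on replicate 2 disagreed, with SDs of 0.99 and 0.35. The value of −0.74 at spot 12652 on that array came from 2 spots with an SD of 0.71. Over all cDNAs, 50.0% were of equal sign on both B,Pl CA arrays. The Pearson correlation between pairs of adh1 cDNAs over the arrays lay between 0.00 and 0.55, with a mean of 0.25. The median was 0.21 over the 32 other genes with 3 or 4 cDNAs. Most of the arrays share b,pl CA RNA.

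For PDHE1-B, all 3 cDNAs had negative values in bz2 and mutator plants under CA, on arrays whose dye labels conflict. On the bz2 CA array the cDNAs at spots 1864, 9352 and 15985 had log2 ratios of −1.66, −1.06 and −1.83 over b,pl CA. On the mutator CA array they had −1.65, −1.83 and −1.92. All 3 cDNAs lay below −1 on these 2 arrays and on no other of the 27. On the B,Pl CA arrays, which are a dye swap, they had −0.29, 0.00 and −0.40 on replicate 1. On replicate 2, the array with the second most missing spots, they had −1.24, −1.54 and −0.14, with spot SDs of 0.60, 0.80 and 0.72. Over all cDNAs, 50.0% were of equal sign on both B,Pl CA arrays, and no fit with either of them reversed is given here.

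The fitted differences from b,pl CA were −1.72 (SE 0.43), −1.12 (SE 0.53) and −1.50 (SE 1.48) in bz2 and −1.71 (SE 0.43), −1.89 (SE 0.53) and −1.58 (SE 1.48) in mutator. The unadjusted p was 0.0022, 0.057 and 0.334 in bz2 and 0.0023, 0.0046 and 0.309 in mutator. The limma adjusted p was 1.00 for each cDNA in bz2 and lay between 0.947 and 1.00 in mutator, where 0% of all cDNAs passed. A fitted difference below −1 was found for 0.389% of all cDNAs in bz2 and for 3.20% in mutator. In B,Pl the 3 cDNAs stood at −0.42, −0.49 and −0.06, and at 0.04, 0.12 and 0.19 without replicate 2. The SE of 1.48 at spot 15985 takes in the 1-spot value on b,pl PE replicate 2. With values from at least 2 spots only, a rule chosen after the values were seen, this cDNA stood at −1.87 in bz2 and −1.95 in mutator.

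Each of these groups rests on 1 array with no dye swap, and both arrays carry conflicting dye labels, since the title gives Cy5 and the channel 2 source name Cy3. If the dyes were reversed, the fitted values would be 1.60, 1.00 and 2.17 in bz2 and 1.59, 1.77 and 2.25 in mutator. With arrays scaled to the same spread, the cDNA at spot 1864 passed in bz2 CA, at −2.48 (limma adjusted p = 0.0419). Unscaled, 0% of all cDNAs passed in this comparison, and the share that passed with scaling is not given here. The 3 cDNAs of the green leaf marker list had a median of −0.21 in bz2 CA and 0.54 in mutator CA, the 5 of the epidermis list 0.06 and 0.15, and the 71 of the dividing leaf base list −0.16 and 0.03. The part of such shifts in the PDHE1-B values was not tested.

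The greenhouse arrays of the same genotypes gave negative PDHE1-B values too. Each of these groups, and B,Pl UV-B, had 1 array with Cy5 as the labelled dye, no conflict in the labels and no dye swap. On the bz2 UV-B array the cDNAs at spots 1864, 9352 and 15985 had −0.83, −0.60 and −0.88 over b,pl CA. On the mutator UV-B array they had −0.87, −1.11 and −0.70, and on the B,Pl UV-B array −0.64, −0.85 and −0.21. In b,pl the corresponding values were 0.10, 0.23 and −0.54 on UV-B replicate 1, 0.17, 0.40 and 0.46 on replicate 2, and 0.19, −0.27 and 0.21 without UV-B. On b,pl UV-B replicate 1 the spots of the cDNAs at 1864 and 9352 had SDs of 0.32 and 0.58. For the cDNAs at spots 1864 and 9352, the arrays of bz2, mutator and B,Pl all lay below those of b,pl. For that at spot 15985 they did not, since B,Pl at −0.21 lay above b,pl UV-B replicate 1 at −0.54. The share of all cDNAs separated in this way was not counted.

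Set against b,pl UV-B, the cDNAs at spots 1864 and 9352 stood at −1.02 (SE 0.52) and −0.98 (SE 0.64) in bz2, −1.06 (SE 0.52) and −1.48 (SE 0.64) in mutator, and −0.83 (SE 0.52) and −1.22 (SE 0.64) in B,Pl. The cDNA at spot 15985 stood at −0.50 in bz2, −0.32 in mutator and 0.17 in B,Pl, with a standard error of 1.79 in each, and its 3 spots on the bz2 UV-B array had an SD of 1.87. None passed, and the smallest limma adjusted p was 0.815, for the cDNA at spot 9352 in mutator. Within b,pl, UV-B minus no UV-B gave −0.00, 0.65 and −0.59. Against b,pl UV-B the green leaf list had medians of −0.37 in bz2, 0.50 in mutator and 0.70 in B,Pl, and its part in these values was not tested.

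**Figure D3:**
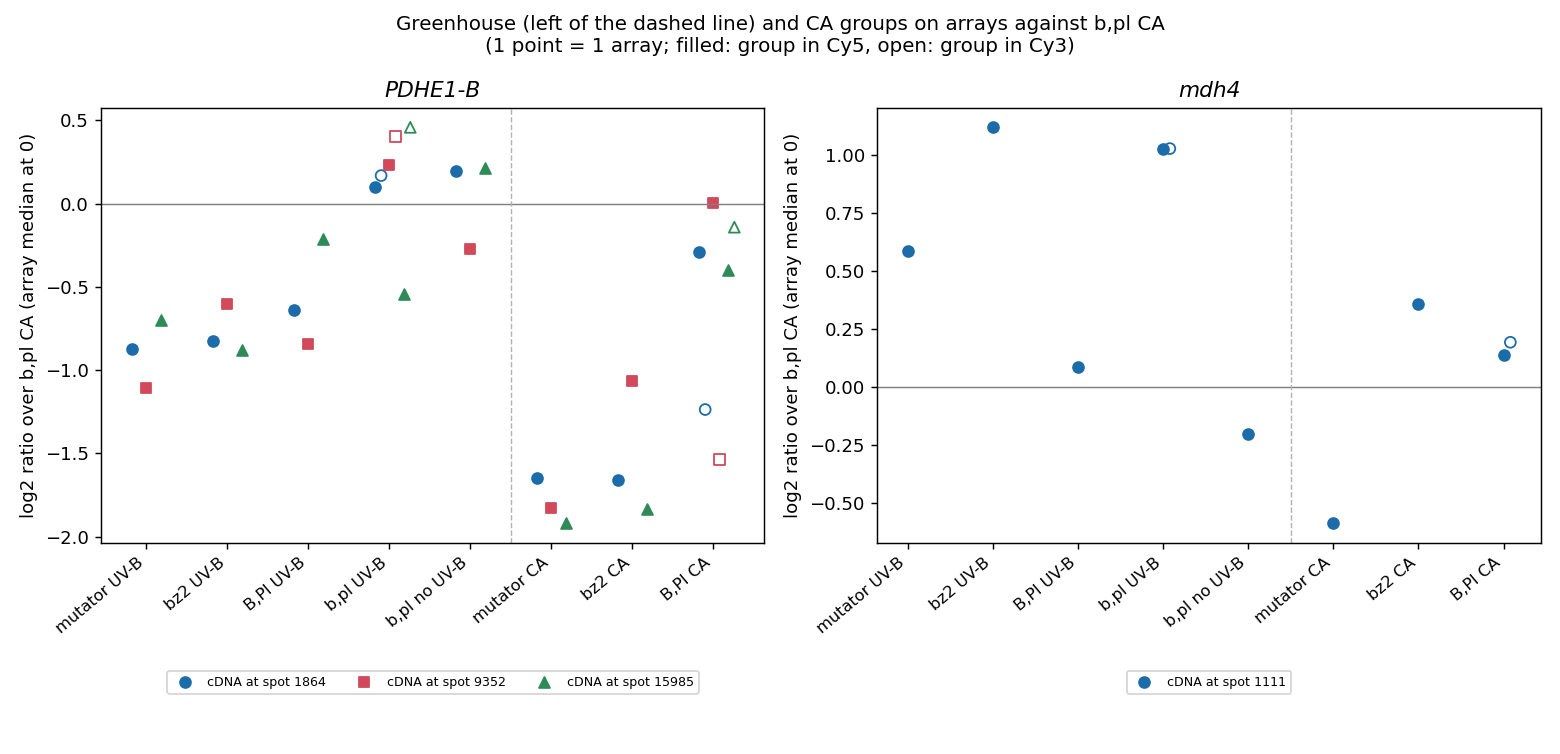
Log2 ratios over b,pl CA (y axis, array median at 0) of the PDHE1-B and mdh4 cDNAs on the arrays of greenhouse and CA plants, 1 point per array, filled where the group was labelled Cy5 and open where it was labelled Cy3. PDHE1-B values of mutator, bz2 and B,Pl plants with UV-B lie between −1.11 and −0.21, those of mutator and bz2 CA between −1.92 and −1.06, and the mdh4 cDNA stands at 1.03 on both b,pl UV-B arrays and at −0.20 without UV-B.

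Under the filters, PDHE1-B in bz2 and mutator was compared with CA of the same genotype on the array itself. On the mutator PE array the 3 cDNAs had log2 ratios of −0.87, −0.26 and −1.09 over mutator CA, on the bz2 PE array −0.50, 0.02 and −0.63 over bz2 CA, and on B,Pl PE replicate 1 −0.68, −0.20 and −1.03 over B,Pl CA. The cDNAs at spots 1864 and 15985 were thus below −0.5 on all 3 of these arrays. The other PDHE1-B cDNA lay between −0.26 and 0.02. How many of all cDNAs lay below −0.5 on all 3 arrays was not counted. Each of these arrays held the PE group in Cy5 with no dye swap, so the part of the dye in these ratios was not tested. The fitted dye term was 0.06 at spot 1864 and −0.34 at spot 15985, where the 1-spot value of b,pl PE replicate 2 enters. The fitted value at spot 1864 in mutator PE, −0.93 (SE 0.43), had a limma adjusted p of 1.00. B,Pl PE replicates 2 and 3, hybridised against b,pl CA, brought the fitted B,Pl differences to −0.05, 0.29 and −0.28. They were 0.09, 0.39 and 0.01 with replicate 3, whose direction is in doubt, reversed in sign.

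In b,pl under PE the PDHE1-B cDNAs disagreed. That at spot 1864 had −0.34 and −0.38 on the 2 arrays, that at spot 9352 had 0.60 and 1.49, and that at spot 15985 had 0.16 and the 1-spot value of 6.21. The fitted differences were −0.36 (SE 0.29, limma adjusted p = 0.735), 1.05 (SE 0.36, limma adjusted p = 0.397) and 3.19 (SE 1.01, limma adjusted p = 0.391). Where a value had to rest on at least 2 spots, a rule chosen after the values were seen, the cDNA at spot 15985 stood at 0.12. With b,pl PE replicate 2 reversed in sign, the values were 0.02, −0.45 and −3.03, and with replicate 1 turned −0.02, 0.45 and 3.03.

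One day after PE removal in b,pl, the PDHE1-B cDNAs lay between −0.08 and 0.16 on replicate 1 and between 0.21 and 0.32 on replicate 2, and the fitted differences from b,pl CA were 0.11, 0.24 and 0.07. They were 0.13, 0.08 and 0.14 with the sign of replicate 1 turned. With replicate 2 turned instead, whose dye labels conflict, their median was −0.13. Without the arrays of conflicting dye labels they were −0.01, 0.17 and −0.56. In B,Pl, PE removed minus CA gave 0.61, 0.45 and −0.48. Under LE the fitted medians were −0.31 in b,pl, 0.17 in B,Pl, −0.13 in bz2 and −0.02 in mutator, with values between −0.40 and 0.67 over all of these cDNAs and genotypes. For bz2 LE the cDNA at spot 1864 had 0.38 and 0.72 on the swapped arrays, and that at spot 15985 had 0.82 and −1.42, the second a mean of 3 spots with an SD of 3.06.

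The 3 PDHE1-B cDNAs were all negative on 10 of the 27 arrays and all positive on 2. Their pairwise Pearson correlations over the arrays were 0.66, 0.18 and 0.60, with a mean of 0.48, against a range of −0.15 to 0.68 for the other genes with 3 or 4 cDNAs. The correlation of 0.18 was between the cDNAs at spots 1864 and 15985. Most of these arrays share b,pl CA RNA.

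For mdh4, the value with the smallest p of all 168 tests was that of b,pl plants with greenhouse UV-B. The cDNA had deposited means of 0.71 with the group in Cy5 and −1.52 with the group in Cy3, which after centring and signing by dye gave 1.03 on each array. The fitted difference from b,pl CA was 1.03 (SE 0.23, unadjusted p = 9.4e-04, limma adjusted p = 0.152). It was above 1 for 2.65% of all cDNAs in this comparison, none of which passed, and 701 cDNAs had an unadjusted p under 0.05.

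The b,pl array without UV-B had −0.20, and UV-B minus no UV-B was 1.24 (SE 0.40, limma adjusted p = 0.712). A fitted difference above 1 was found for 5.10% of all cDNAs in this comparison. In the other genotypes the cDNA had 1.12 on the bz2 UV-B array, 0.59 on the mutator UV-B array and 0.09 on the B,Pl UV-B array, all over b,pl CA. Set against b,pl UV-B, the values were 0.08 (SE 0.40) in bz2, −0.45 (SE 0.40) in mutator and −0.95 (SE 0.40, limma adjusted p = 0.854) in B,Pl. Among the 3 genotypes other than b,pl, the mdh4 ratio over b,pl CA was thus closest to 0 in B,Pl and farthest in bz2. This order is not one of responses to UV-B, since the ratios also hold differences between genotypes. Under CA these were fitted at −0.60 in mutator, 0.35 in bz2 and 0.09 in B,Pl. UV-B against CA of the same genotype was not tested in these 3 genotypes.

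The b,pl UV-B arrays lay at a Spearman correlation of −0.40 with each other before signing, and 64.1% of cDNAs shared a sign between them after it. At the same time, UV-B replicate 2 and b,pl PE removed replicate 1, both with the group in Cy3, correlated at −0.40 (Pearson) over all cDNAs, so that their direction relative to each other is not settled. With the sign of either UV-B array turned, the median residual variance was 0.197 or 0.205 and the mdh4 value was 0.00, since both arrays carried the same ratio. Under the remaining alternatives, apart from that reading with the named group always on top, where it was −0.00, it lay between 0.88 and 1.12, with limma adjusted p between 0.0809 and 0.835. The green leaf list had a median of 0.37 and the dividing leaf base list one of −0.28 in this comparison, and their part in the mdh4 value was not tested.

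Under CA, mdh4 had a log2 ratio of −0.59 on the mutator array, 0.36 on the bz2 array and 0.14 and 0.19 on the B,Pl arrays. None of the 3 differences from b,pl CA passed, and the one with the smallest p was mutator at −0.60 (SE 0.33, limma adjusted p = 1.00). Turning the sign of the mutator CA or bz2 CA array, whose dye labels conflict, gave 0.58 and −0.37.

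Under LE the mdh4 cDNA had −0.29 and 0.53 on the b,pl arrays, −0.20 and −0.53 on the bz2 arrays, −0.45 on the mutator array and 0.22 on the B,Pl array, each over CA of the same genotype. The dye-swapped arrays had opposite signs in b,pl and the same sign in bz2. The fitted differences were 0.12 (SE 0.23), −0.37 (SE 0.23), −0.46 (SE 0.33) and 0.21 (SE 0.33) in the same order, with limma adjusted p between 0.508 and 1.00.

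Under PE, mdh4 had 0.39 and −0.31 on the b,pl arrays, with fitted differences from CA of 0.04 in b,pl, 0.06 in B,Pl, −0.01 in bz2 and 0.04 in mutator. The 95% confidence interval ran from −0.46 to 0.54 in b,pl and from −0.69 to 0.77 in mutator. The b,pl arrays, whose direction is in doubt, cancelled only as labelled. With b,pl PE replicate 2 reversed the b,pl value was 0.35, and with replicate 1 reversed instead −0.35. With B,Pl PE replicate 3 reversed the B,Pl value was negative. After PE removal mdh4 had 0.04 and 0.18 in b,pl and 0.46 and 0.25 in B,Pl. Over the 27 arrays the cDNA was positive on 20, and its median ratio was 0.14.

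Whether genotypes differed in their response to LE or to PE was tested with an F test for each of the 8 cDNAs. None passed in either test (limma, smallest adjusted p = 1.00) and none had an unadjusted p under 0.05. Over all cDNAs, 0.242% passed for LE and 0% for PE, and 4.05% and 1.25% had an unadjusted p under 0.05. The smallest unadjusted p among the 8 was 0.101, for the PDHE1-B cDNA at spot 15985 under PE, where the 1-spot value enters.

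The level of each gene relative to b,pl CA was ordered over 19 groups from the mean of its cDNAs, as a description. For adh1 the order began with b,pl PE at −0.57 and mutator PE at −0.37 and ended with mutator UV-B at 0.30 and bz2 UV-B at 0.50, and all 18 neighbouring pairs lay within 1 SE of their difference. The low end of this order depended on arrays of doubtful direction: b,pl PE stood at 0.17 with its replicate 2 reversed and at −0.17 with replicate 1 reversed, and mutator PE at 0.23 with the mutator CA array reversed. For PDHE1-B the 6 lowest groups were the PE, CA and LE groups of mutator and bz2, from −2.39 for mutator PE to −1.41 for bz2 LE, followed by mutator, bz2 and B,Pl with UV-B at −0.82, −0.69 and −0.49. The PE and LE groups of mutator and bz2 were placed through the single CA array of their genotype, whose dye labels conflict. With the bz2 CA array reversed, the bz2 PE, CA and LE groups were the 3 highest, between 1.30 and 1.63. With the mutator CA array reversed, the mutator PE, CA and LE groups stood between 1.20 and 1.95, so the low end of this order did not hold. The highest group was b,pl PE at 1.29, or 0.35 without the 1-spot value and −1.15 with its replicate 2 reversed. As labelled, only its gap to b,pl PE removed, next below, exceeded 1 SE, which it did not without the 1-spot value.

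For mdh4 the order began with mutator LE at −1.06, mutator CA at −0.60 and mutator PE at −0.56 and ended with mutator, b,pl and bz2 with UV-B at 0.58, 1.03 and 1.11. In this order 16 of 18 neighbouring pairs lay within 1 SE. The exceptions were mutator LE below mutator CA and mutator UV-B below b,pl UV-B. The 3 lowest places rested on the mutator CA array. With that array reversed, mutator LE, CA and PE stood at 0.12, 0.58 and 0.62, and the lowest group was b,pl no UV-B at −0.21.

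Other genes of these pathways on the array were few. For fermentation they were pdc3, a pyruvate decarboxylase, and rf2b, an aldehyde dehydrogenase, with 3 cDNAs in all, for malate and C4 acid metabolism me2, a malic enzyme, and pep7, a phosphoenolpyruvate carboxylase, with 6 cDNAs. In limma, 0 of these 9 cDNAs passed in any of the 21 comparisons, and at an unadjusted p under 0.05 the most were 3 of 6 malate and C4 acid cDNAs in b,pl no UV-B against b,pl CA, where 7.12% of all cDNAs were under it. There me2 stood at 1.85 and the 5 pep7 cDNAs at a median of 0.62, where mdh4 stood at −0.21.

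In b,pl under PE, pdc3 stood at −0.53 (limma adjusted p = 0.512) and the rf2b cDNAs at a median of −0.18, beside the adh1 median of −0.53. With b,pl UV-B against b,pl CA, pdc3 stood at −0.31 and the rf2b cDNAs at a median of 0.43. Under PE, all 6 malate and C4 acid cDNAs, most of them of pep7, were negative in bz2 and in mutator, with medians of −0.27 and −0.59. There mdh4 stood at −0.01 and 0.04, and 49.0% and 50.1% of all cDNAs were negative. Under PE in b,pl 4 of the 6 were positive, and in B,Pl 1. In bz2 LE all 6 were positive, with a median of 0.28.

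The 8 other genes listed as anaerobic polypeptides, which encode sucrose synthases and glycolytic enzymes induced with Adh1 in oxygen-deprived maize, had 45 cDNAs. Of these 1 passed in bz2 LE against bz2 CA, where 0.556% of all cDNAs passed, and 0 passed in any other comparison. It was a cDNA of the enolase gene eno1 with a positive value. In bz2 LE the list's median was 0.04 with 26 positive and 19 negative cDNAs, beside the adh1 median of 0.23. In B,Pl LE it was 0.16 with 35 positive and 10 negative, beside the adh1 median of 0.13. The list had 23 positive and 22 negative cDNAs in b,pl LE, and 25 and 20 in mutator LE. Of all cDNAs, 50.2% were negative in bz2 LE and 50.7% in B,Pl LE. In b,pl PE the list's median was −0.08 with 18 positive and 27 negative, and in b,pl UV-B −0.19 with 14 positive and 31 negative. Of all cDNAs, 53.7% and 50.6% were negative in these comparisons with b,pl CA.

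The genes whose pattern over the arrays, read as Cy5 over Cy3, was most like that of adh1 among 210 other named genes were LOC542177 (PK), fdh1 (LOC542459), a glutathione-dependent formaldehyde dehydrogenase of the alcohol dehydrogenase family, and LOC541617, each at a Pearson correlation of 0.73. Without the 2 arrays farthest from the median they stood at 0.68, 0.71 and 0.56. For mdh4 the 3 most alike were LOC542721 at 0.61, LOC542269 at 0.59 and LOC732740 at 0.57, and for PDHE1-B they were ocl4 (LOC542009) at 0.64, LOC100037784 at 0.63 and LOC100125658 at 0.55. Without the 2 farthest arrays the last 3 stood at 0.34, 0.01 and 0.32, so these likenesses rest on those arrays. Correlations were over 26 or 27 arrays, most of which share b,pl CA RNA.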

How the data were processed

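Leaf RNA of 27 samples was measured on 2-colour cDNA arrays, 1 array per sample. The authors deposited 1 value per spot, a log2 ratio of the 2 channels, with the base inferred from the numbers: among those over 2 in size, 16.3% gave a whole number as a power of 2 within 0.0001, against 0.0751% as a power of e. For background correction, normalization and numerator channel, the method was not given in the sources used here. Array medians lay between −0.68 and 0.36. Ratios were read as Cy5 over Cy3, with dyes taken from the titles. On 4 arrays (bz2 CA, mutator CA, replicate 2 of B,Pl PE and replicate 2 of b,pl PE removed), the channel 2 source name contradicts the title.

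Each cDNA was taken as 3 consecutive spots, whose values were averaged and centred on the array median. Within these triplicates the SD had a median of 0.0375, and 0.18 when the grouping was moved along by 1 spot. All 5400 cDNAs were fitted together in R 4.3.3 by least squares, with 18 group terms relative to b,pl CA and a dye term, 8 residual degrees of freedom and variances moderated with limma 3.58.1. The p-values were adjusted with the Benjamini-Hochberg method over all cDNAs in each of 21 comparisons in 6 families and in 2 F tests, with a threshold of 0.05. b,pl CA was the RNA of the other channel on most arrays and had no array of its own, so its own spread is left out. The fits were tested on simulated data. The alternatives were other scalings, readings of the dye, spot summaries, turned signs and leaving out arrays.

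The genes named were the 3 dehydrogenase genes, the genes of the fixed lists, and the 3 other genes with the highest Pearson correlation to each. Members and lists were chosen with earlier results of these data known. Gene names came from the probe annotation, in which 811 cDNAs carried the symbol of 213 genes, and 208 of these genes matched a maize gene table that was used for names only.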

Additional observations from a re-analysis of the deposited data

How the results depend on the processing

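None of the 168 tests of the 8 cDNAs passed, and 3 of 7748 tests under alternatives did, from 20 other settings and 27 fits that left out 1 array each. With arrays scaled to the same spread, 1 test passed among the genotypes under CA, the PDHE1-B cDNA at spot 1864 in bz2 CA (−2.48, limma adjusted p = 0.0419). The share of all cDNAs that passed in bz2 CA with this scaling is not given here. Leaving out 1 array gave counts from 0 to 1 for PE against CA and for 1 day after PE removal, and likewise from 0 to 1 for genotype differences in response to LE and PE. The count of 1 came without b,pl PE replicate 1, where the PDHE1-B cDNA at spot 15985, resting on its single spot of 6.21, stood at 6.25 for b,pl PE against CA (limma adjusted p = 5.2e-04) and at −6.18 for PE removed against PE (limma adjusted p = 0.0027). The sign of the median over a gene's cDNAs was kept under every alternative in 16 of 63 combinations of gene and comparison, and the sign of a single cDNA in 50 of 168. Without centring, the median of all cDNAs in a comparison shifted by between −0.44 and 0.48. The settings of at least 2 spots per value and of turned CA arrays were chosen after seeing the data. Without the bz2 CA or the mutator CA array, comparisons with these groups gave no value. No paired analysis was possible because the labels give no replicate numbers. The replicate numbers used here follow the order of the samples.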
